A study of Mus musculus with 11 samples.

Results

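The 39 genes described here encode nucleolar factors that make ribosomes. They were chosen by symbol, as the rows of the deposited table whose Ensembl gene ID maps to a fixed list of 39 names, out of 37820 gene IDs in all. Ribosome production begins in the nucleolus, where RNA polymerase I transcribes the ribosomal DNA into 1 long precursor. Small nucleolar ribonucleoprotein particles (snoRNPs) guide chemical modification of that precursor, and large assemblies of proteins then cut, fold and export it as a small and a large ribosomal subunit. In blood-forming tissue the rate of this process is known to be tied to growth and protein synthesis, and adult hematopoietic stem cells (HSCs) are known for low protein synthesis.

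RNA-seq was performed on 11 libraries of 5 sorted mouse populations that follow HSC formation in the embryo. Endothelium (Endo) was CD31+ Runx1:GFP- and lacked c-Kit, CD45 and CD41, and hemogenic endothelium (HE), from which blood cells arise, was Runx1:GFP+ with low or no c-Kit. Both came from the large caudal arteries of E10.5 embryos of B6C3F1 females and Runx1tm4Dow males, whose Runx1 locus carries GFP. Pre-HSCs, the precursors of HSCs in arterial clusters, were sorted on CD31, CD144, ESAM, c-Kit and Ly6a:GFP, each positive, out of embryos of superovulated B6C3F1/J females and males with the Ly6a-GFP transgene. GEO's labels give E10.5 for pre-HSCs, whereas the study's text gives embryos a day older. Fetal liver (FL) HSCs were Lin-Sca1+c-Kit+CD150+CD48- cells of E14.5 embryos of B6C3F1/J females and B6129SF1/J males, with no reporter. Bone marrow (BM) HSCs were the like cells of B6C3F1/J and B6129SF1/J mice aged 6 to 8 weeks, sorted also against CD135 by the study's methods and against CD34 by its list of gates. There were 2 libraries of each population except pre-HSCs, which had 3, each made from cells pooled over many embryos or mice. These crosses are from the study's methods, while the labels give the strain B6129SF1 throughout, so stage, cross, tissue and gate cannot be told apart.

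Levels are FPKM, fragment counts divided by transcript length and library size, which can be compared between genes. Changes are differences in log2(FPKM + 1) of the later minus the earlier population, from limma. A gene was called where it changed at least 2-fold, with limma's adjusted p under 0.05 for the comparison and under 0.01 for the moderated F test across populations. All 39 genes were among the 14708 that passed the filter of 1 FPKM in at least 2 libraries, and none was listed at 0 in any library. The number of reads behind a value is unknown. Only RNA was measured, so a rise or fall of a gene or factor is one of its RNA. Summed FPKM over all genes ran between 569851 in pre-HSC library 1 and 789161 in Endo library 1, so the main counts of called genes are also given with all libraries scaled to the same total. Counts of genes without overlap are for the FPKM as deposited unless equal totals are named, and correlations with GC content are for the FPKM as deposited.

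FL HSCs had the highest level of the nucleolar genes among the 5 populations, and pre-HSCs the lowest. The 39 genes together made up 0.551% and 0.622% of all FPKM in the Endo libraries, 0.535% and 0.556% in the HE libraries and 0.498%, 0.525% and 0.447% in the pre-HSC libraries. They made up 0.835% and 0.919% in the FL HSC libraries and 0.650% and 0.635% in the BM HSC libraries. These shares do not depend on how the libraries are scaled. Both FL HSC libraries lay above every other library and all 3 pre-HSC libraries lay below every other. Npm1 alone supplied between 20.6% of the sum in FL HSC library 1 and 35.3% in pre-HSC library 1, and without it the shares were 0.663% and 0.667% in FL HSCs, against 0.322%, 0.341% and 0.324% in pre-HSCs. In bulk samples a lower level of these RNAs per cell and fewer cells that contain them cannot be told apart.

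**Figure D1:**
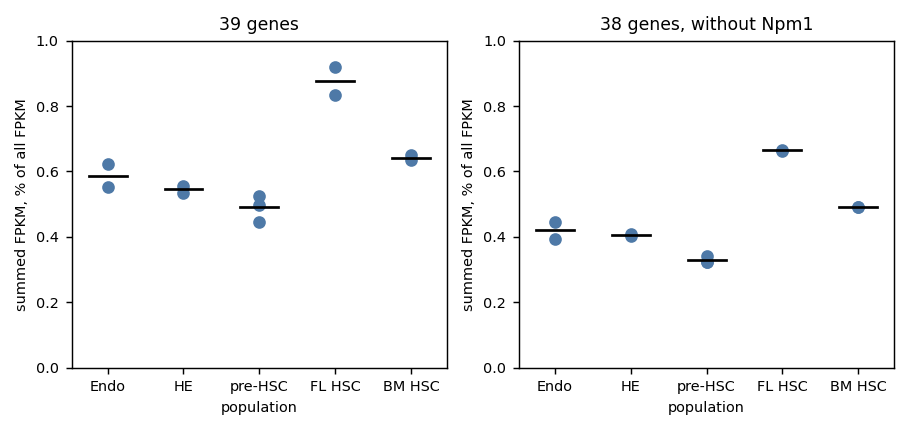
Summed FPKM of the nucleolar genes as a percentage of all FPKM in each library (points, 1 per library) with the population mean (line), for all 39 genes (left) and without Npm1 (right). The 2 FL HSC libraries, at 0.835% and 0.919% for all 39 genes, sit above the other 9.

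Gene by gene, 35 of the 39 had their highest population mean in FL HSCs, which was the highest population for 23.4% of the 14708 tested genes. The other 4 were Nhp2, Rrn3 and Bysl, highest in Endo, and Nop58, highest in BM HSCs. Pre-HSCs were lowest for 23 of the 39, HE for 9, BM HSCs for 4 and Endo for 3. Over all tested genes the shares were 15.1% for pre-HSCs, 18.3% for HE, 22.6% for BM HSCs and 26.6% for Endo. With equal totals FL HSCs were highest for 31 of the 39, against 18.0% of tested genes, and pre-HSCs were lowest for 18, HE for 10, Endo for 7 and BM HSCs for 4. On that scale pre-HSCs were lowest for 8.32% of tested genes, HE for 14.6%, Endo for 35.9% and BM HSCs for 21.2%. Levels spanned a wide range, from a mean over all libraries of 9.88 FPKM for Utp20 to 1079 FPKM for Npm1. The heat map of all members shows how this pattern is shared by genes of every role.

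**Figure D2:**
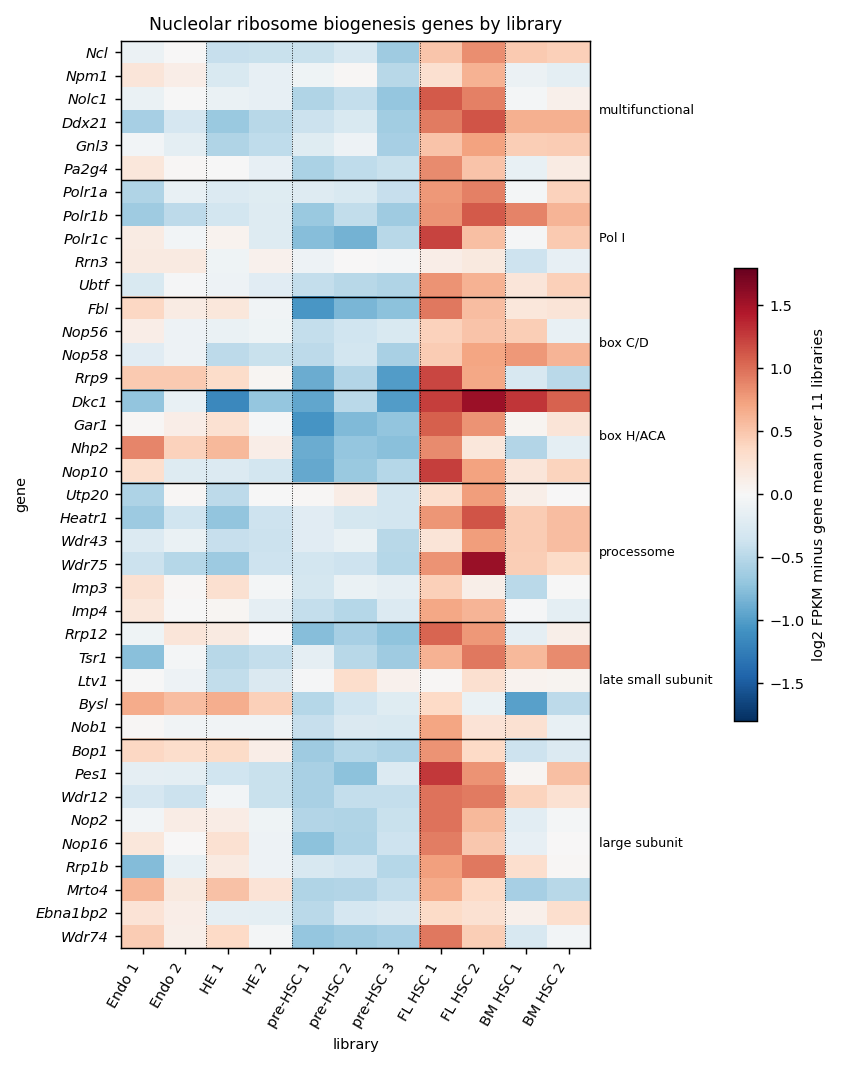
Log2 FPKM of each of the 39 genes (rows, grouped by role) in each of the 11 libraries (columns, in stage order), minus the gene's mean over the libraries. Most rows are pale or blue in the 3 pre-HSC columns and red in the 2 FL HSC columns, while Rrn3 and Ltv1 vary little and Bysl and Nhp2 are red in the Endo columns too.

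The first comparison asked how these genes differ between FL HSCs and pre-HSCs. Of the 39 genes, 28 rose in FL HSCs and 0 fell, where 11.1% of all tested genes rose and 13.9% fell. No member was lower in FL HSCs even at an unadjusted p under 0.05 in limma. All 39 were higher in FL HSCs in the FPKM as deposited, with a median log2 change of 1.18 against 0.11 over all tested genes, and with equal totals 37 were higher, Rrn3 and Ltv1 turning slightly lower. With equal totals 17 rose, all of them among the 28, against 7.62% of all tested genes, and the median was 0.94 against -0.09 over all genes. Relative to the median of all genes the members' median was therefore 1.07 as deposited and 1.03 with equal totals. The FL HSC and pre-HSC libraries did not overlap for 38 of the 39 genes, where 38.1% of all tested genes were higher in FL HSCs without overlap. With equal totals the libraries of Npm1, Utp20, Wdr43 and Rrn3 overlapped as well as those of Ltv1.

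The genes of the box H/ACA snoRNP, which isomerizes uridines of ribosomal RNA to pseudouridine, changed most. All 4 genes of this particle rose in FL HSCs, on both scales, with a median log2 change of 1.73. Dkc1 encodes dyskerin, its catalytic subunit and also a part of telomerase, and lies at chrX:72341193-72355116 in mm9. It stood at 148 and 183 FPKM in FL HSCs, against 33.0, 44.8 and 31.3 FPKM in pre-HSCs. Both FL HSC libraries lay far above all pre-HSC libraries, and the log2 change of 2.17 (SE 0.22, limma's adjusted p = 3.65e-05) was the largest of the 39. Dkc1 had 153 and 131 FPKM in BM HSCs, overlapping FL HSCs, whereas it had 28.1 and 38.9 FPKM in HE and 38.5 and 57.1 FPKM in Endo.

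Gar1, a small subunit of the same particle, stood at 377 and 310.3 FPKM in FL HSCs, against 85.4, 102 and 109 FPKM in pre-HSCs (log2 change 1.79, SE 0.15, limma's adjusted p = 1.08e-05). Nop10, which holds the particle's core together, had 245 and 171 FPKM in FL HSCs, against 54.5, 65.2 and 72.5 FPKM in pre-HSCs. Unlike Dkc1, both were lower again in BM HSCs, with 184 and 209.7 FPKM of Gar1 and 119.7 and 136 FPKM of Nop10. Nhp2, the fourth protein and the most abundant over all libraries, had 339 and 218 FPKM in FL HSCs, against 102, 117 and 112 FPKM in pre-HSCs. Its HE libraries, at 283 and 205 FPKM, and Endo libraries, at 346 and 250.4 FPKM, overlapped FL HSCs.

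Box C/D snoRNPs add methyl groups to ribosomal RNA, and 3 of their 4 genes rose in FL HSCs, with a median log2 change of 1.32. With equal totals 2 of the 4 were called, Fbl and Rrp9. Fibrillarin (Fbl), the methyltransferase, was at 443 and 337 FPKM in FL HSCs, against 111, 129.6 and 138 FPKM in pre-HSCs. The log2 change was 1.61 (SE 0.16, limma's adjusted p = 2.96e-05) and the libraries did not overlap. Rrp9, a protein particular to the U3 snoRNP that the first cuts of the precursor need, had 123 and 86.5 FPKM in FL HSCs, against 28.8, 37.2 and 26.7 FPKM in pre-HSCs. Its log2 change was 1.72 (SE 0.19, limma's adjusted p = 5.28e-05). Nop58, a core protein, had 75.9 and 90.7 FPKM in FL HSCs, against 39.9, 43.9 and 36.8 FPKM in pre-HSCs, a log2 change of 1.03 that lay just past the 2-fold limit. Its partner Nop56 was 0.81 higher on the log2 scale (SE 0.17) and was not called. Nop58 was the member with its highest mean in BM HSCs, at 94.9 and 84.8 FPKM, which overlapped FL HSCs.

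Among the genes of RNA polymerase I transcription, 4 of 5 rose in FL HSCs, and with equal totals 2 of 5, Polr1b and Polr1c, were called. Polr1c, a subunit that polymerase I shares with polymerase III, had 315 and 198 FPKM in FL HSCs, against 79.8, 75.6 and 96.3 FPKM in pre-HSCs (log2 change 1.57, SE 0.22, limma's adjusted p = 0.000289). Polr1b, the second-largest subunit of polymerase I, had 34.6 and 42.4 FPKM in FL HSCs, against 12.4, 14.4 and 12.7 FPKM in pre-HSCs (log2 change 1.48, SE 0.15). The catalytic subunit Polr1a and the ribosomal DNA binding factor Ubtf rose by log2 changes of 1.09 and 1.20. Rrn3 stood apart, with 27.5 and 28.8 FPKM in FL HSCs, against 23.8, 25.6 and 24.97 FPKM in pre-HSCs. Rrn3 makes polymerase I competent to start, and its log2 change of 0.18 (SE 0.12, 95% interval -0.09 to 0.44) did not pass the test. Over all 11 libraries it ran only between 19.6 FPKM in a BM HSC library and 28.8 FPKM in a FL HSC library.

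Of the genes of multifunctional nucleolar proteins, 4 of 6 rose in FL HSCs, and with equal totals 2 of 6, Nolc1 and Ddx21, were called. Nolc1, a chaperone of snoRNPs, had 157 and 137 FPKM in FL HSCs, against 50.3, 54.1 and 45.0 FPKM in pre-HSCs (log2 change 1.54, SE 0.12, limma's adjusted p = 5.55e-06). Ddx21, an RNA helicase of polymerase I transcription and precursor processing, had 88.3 and 101.8 FPKM in FL HSCs, against 35.5, 38.4 and 30.2 FPKM in pre-HSCs (log2 change 1.43, SE 0.14). Nucleolin (Ncl) and Pa2g4, a growth-regulated nucleolar protein, rose by log2 changes of 1.10 and 1.15. Nucleophosmin (Npm1), a histone and ribosome chaperone and the most abundant member, had 1294 and 1635 FPKM in FL HSCs, against 1000.3, 1077 and 748 FPKM in pre-HSCs. As deposited, all Npm1 libraries of FL HSCs lay above those of pre-HSCs. The log2 change of 0.64 (SE 0.19) was under 2-fold and not called. Gnl3, or nucleostemin, a GTPase known from stem cells, was the gene closest below the limit at a log2 change of 0.90 (SE 0.15).

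Of the large subunit assembly factors, 8 of 9 were called higher in FL HSCs, and with equal totals 5 of 9, without Bop1, Mrto4 and Rrp1b. Pes1, which forms a complex with Bop1 and Wdr12 in maturation of the large subunit RNAs, had 233 and 169.9 FPKM in FL HSCs, against 64.8, 58.1 and 81.9 FPKM in pre-HSCs. The log2 changes of Pes1, Bop1 and Wdr12 were 1.54, 1.14 and 1.39. Nop2, a ribosomal RNA methyltransferase, Nop16, Rrp1b and Wdr74 rose by log2 changes of 1.18 to 1.32, and Mrto4, which holds the place of the ribosomal stalk protein during assembly, by 1.01. The most abundant of this group, Ebna1bp2, was the one not called. It had 140.5 and 135 FPKM in FL HSCs, against 79.3, 89.9 and 93.1 FPKM in pre-HSCs, without overlap and with a log2 change of 0.65 (SE 0.12).

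Of the small subunit processome, the assembly that carries the first cuts of the precursor, 3 of 6 rose, and with equal totals 1 of 6, Wdr75, was called. Wdr75 had 56.5 and 94.2 FPKM in FL HSCs, against 25.6, 24.8 and 22.6 FPKM in pre-HSCs (log2 change 1.55, SE 0.20, limma's adjusted p = 0.000138). Heatr1 and Imp4 rose by 1.16 and 1.03. Utp20, Wdr43 and Imp3 were 0.53, 0.75 and 0.46 higher and were not called. Imp3, a U3 snoRNP protein, had 109 and 87.2 FPKM in FL HSCs, against 65.0, 74.4 and 72.7 FPKM in pre-HSCs.

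Of the late maturation and export factors of the small subunit 2 of 5 rose, Rrp12 and Tsr1, Tsr1 by a log2 change of 1.18, and with equal totals Rrp12 alone was called. Rrp12, an export factor, had 33.5 and 27.9 FPKM in FL HSCs, against 9.55, 10.7 and 9.77 FPKM in pre-HSCs (log2 change 1.52, SE 0.15, limma's adjusted p = 3.14e-05). Nob1, the endonuclease that trims the end of 18S RNA, had 89.7 and 65.2 FPKM in FL HSCs, against 41.2, 45.8 and 45.2 FPKM in pre-HSCs, and was not called. Bysl, whose yeast counterpart is an export adaptor, had 29.5 and 21.3 FPKM in FL HSCs, against 16.2, 17.9 and 19.8 FPKM in pre-HSCs, and was not called either. Ltv1, which yeast needs to complete the head of the small subunit, was the gene whose libraries overlapped in the FPKM as deposited. It had 37.3 and 45.0 FPKM in FL HSCs, against 36.2, 45.8 and 38.7 FPKM in pre-HSCs. Its log2 change was 0.03 (SE 0.14, 95% interval -0.28 to 0.34).

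**Figure D3:**
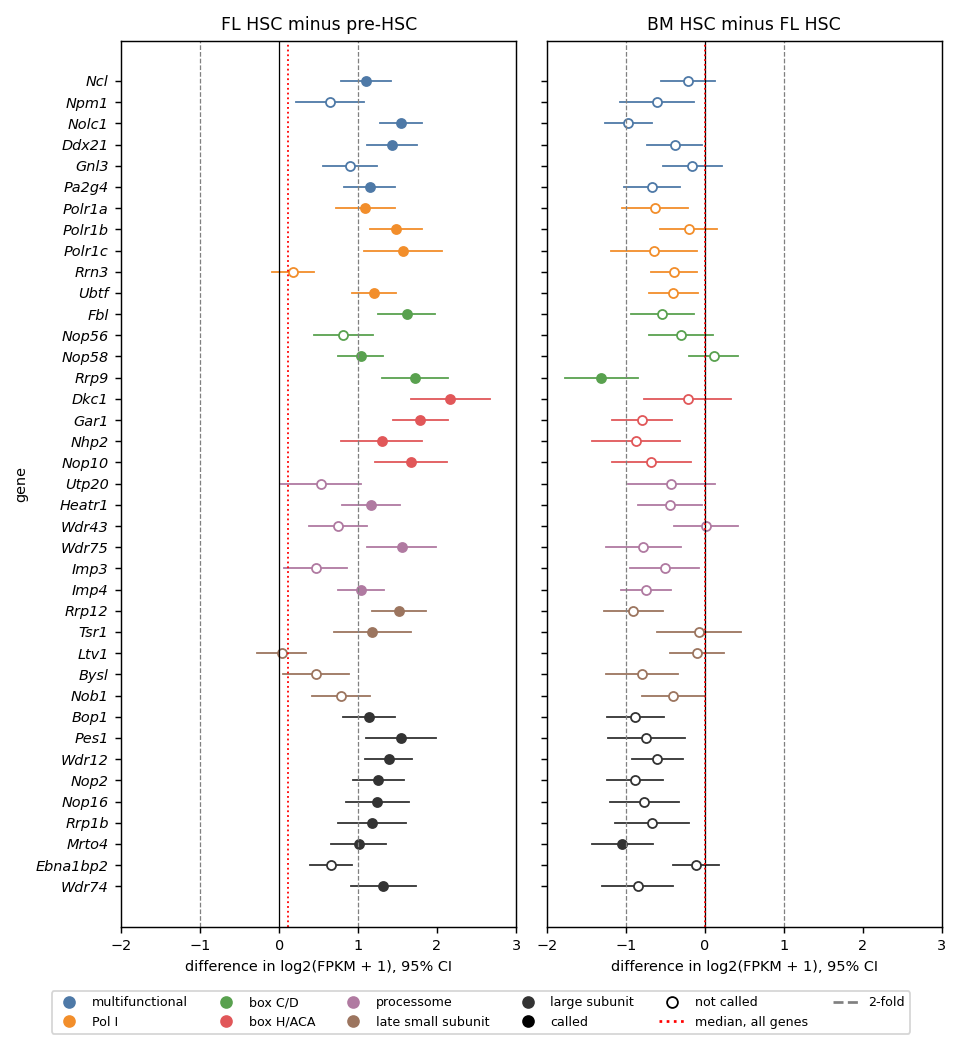
Difference in log2(FPKM + 1) with its 95% interval for each of the 39 genes, FL HSC minus pre-HSC (left) and BM HSC minus FL HSC (right), colored by role, with filled points for called genes, dashed lines at 2-fold and a dotted line at the median of all tested genes. In the left panel 28 points are filled and Rrn3 and Ltv1 lie near 0, and in the right panel Rrp9 and Mrto4 are filled and Nop58 and Wdr43 lie right of 0, joined there by Tsr1, Ltv1 and Ebna1bp2 when totals are made equal.

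Because most of these genes were called higher in FL HSCs, their promoters were searched for the E-box CACGTG, the site of Myc and Mycn among other factors. RefSeq promoter windows on GRCm38.p6, 250 bases before to 50 after the start site, were found for 35 of the 39 genes. The E-box, which reads the same on both strands, was in at least 1 window of 8 of them (22.9%). It was in 8.09% of the 27025 genes with such windows, expressed here or not. The comparisons with all genes were matched for neither expression nor base composition. GGGCGG, the GC box, was on either strand in 25 of the 35 (71.4%), against 38.2% of all genes. GGGAGGG, which can overlap the GC box, was on either strand in 25.7% of the 35 and 23.8% of all genes. Of the 8 genes with an E-box, 4 rose in FL HSCs, with a median log2 change of 0.89, and of the 27 without one 21 rose, with a median of 1.20. A match describes these letters only.

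Of the 8, the genes Nop2, Imp4 and Rrn3 have the E-box upstream of the start site and on the plus strand of their chromosome, and their 250 upstream bases are shown with the E-box in capitals. Nop2 and Imp4 rose in FL HSCs, and Rrn3, with 2 copies, was among the members that changed least.
Nop2 (chr6:125131633-125131882, plus strand): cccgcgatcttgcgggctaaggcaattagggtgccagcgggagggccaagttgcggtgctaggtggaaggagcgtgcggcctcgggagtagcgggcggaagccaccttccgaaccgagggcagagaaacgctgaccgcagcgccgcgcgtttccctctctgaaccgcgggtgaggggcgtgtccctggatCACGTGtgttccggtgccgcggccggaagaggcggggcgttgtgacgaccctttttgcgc
Imp4 (chr1:34439579-34439828, plus strand): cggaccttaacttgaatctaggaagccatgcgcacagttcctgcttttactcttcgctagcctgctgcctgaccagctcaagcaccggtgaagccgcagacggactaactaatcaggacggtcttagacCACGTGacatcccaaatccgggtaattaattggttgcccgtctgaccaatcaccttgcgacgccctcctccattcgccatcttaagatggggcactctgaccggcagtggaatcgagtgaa
Rrn3 (chr16:13780449-13780698, plus strand): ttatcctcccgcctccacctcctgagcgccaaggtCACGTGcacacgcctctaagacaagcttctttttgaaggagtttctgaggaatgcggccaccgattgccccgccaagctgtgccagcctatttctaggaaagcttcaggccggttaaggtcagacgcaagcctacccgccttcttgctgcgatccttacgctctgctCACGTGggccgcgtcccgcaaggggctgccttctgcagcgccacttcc

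Myc and Mycn encode factors long tied to ribosome production, and were the 2 of 9 genes of the Myc family and its partners that rose in FL HSCs against pre-HSCs. Another 2 of the 9 fell, Mxd3 and Mycl1, with log2 changes of -1.47 and -1.08, and the counts were the same with equal totals. Of all tested genes 11.1% rose and 13.9% fell as deposited, and 7.62% rose with equal totals. Whether the 9 genes differ from those shares was not tested. Myc stood at 144 and 121 FPKM in FL HSCs, against 26.0, 34.2 and 28.6 FPKM in pre-HSCs, and rose by a log2 change of 2.13 (SE 0.16, limma's adjusted p = 3.54e-06). Mycn had 104 and 137 FPKM in FL HSCs, against 35.9, 43.6 and 36.7 FPKM in pre-HSCs, a log2 change of 1.60 (SE 0.16). In BM HSCs Myc had 119 and 123 FPKM, overlapping FL HSCs as Dkc1 did, and Mycn had 92.2 and 93.8 FPKM.

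The second comparison set BM HSCs against FL HSCs. Of the 39 genes, 2 fell in BM HSCs, Rrp9 and Mrto4, and 0 rose, where 4.07% of all tested genes fell and 5.99% rose. No member was higher in BM HSCs even at an unadjusted p under 0.05 in limma. The shift was broader than these calls and mostly under 2-fold. In the FPKM as deposited 37 of the 39 were lower in BM HSCs, with a median log2 change of -0.61 against 0.00 over all genes, and with equal totals 34 were lower, with a median of -0.48 against 0.09. At any size of change, 18 members were lower past both tests (9.65% of all genes were), and with equal totals 16 were (6.93% of all genes were). The libraries did not overlap for 30 members, all lower in BM HSCs, where 29.1% of all genes were lower without overlap. With equal totals Ncl, Gnl3 and Utp20, of these 30, overlapped too.

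Rrp9 had 43.9 and 38.1 FPKM in BM HSCs, against 123 and 86.5 FPKM in FL HSCs (log2 change -1.31, SE 0.21, limma's adjusted p = 0.00222). Mrto4 had 51.2 and 54.8 FPKM in BM HSCs, against 123 and 99.1 FPKM in FL HSCs (log2 change -1.05, SE 0.17, limma's adjusted p = 0.00283). Mrto4 thus overlapped pre-HSCs, which had 52.8, 53.3 and 57.4 FPKM, while Rrp9 stayed just above the 26.7 to 37.2 FPKM of pre-HSCs. The Mrto4 call was lost with equal totals, which left 1 gene called lower, where 3.14% of all genes were. Without FL HSC library 2 the count was 9, without BM HSC library 2 it was 5, without BM HSC library 1 it was 1, and with these 2 populations fitted alone it was 0.

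In the FPKM as deposited, large subunit assembly had the largest share of members lower in BM HSCs past both tests at any size of change. It had 8 of 9, where 9.65% of all genes were, with log2 changes between -1.05 for Mrto4 and -0.60 for Wdr12. The ninth gene of this group, Ebna1bp2, was slightly lower (log2 change -0.11) and did not pass. It had 118.9 and 137 FPKM in BM HSCs and overlapped FL HSCs. Nolc1 had 71.1 and 77.7 FPKM in BM HSCs, against 157 and 137 FPKM in FL HSCs, and its log2 change of -0.97 (SE 0.13, limma's adjusted p = 0.00112) was just under 2-fold. Rrp12 had 14.5 and 17.4 FPKM in BM HSCs, against 33.5 and 27.9 FPKM in FL HSCs (log2 change -0.90, SE 0.17). Bysl had 11.8 and 16.6 FPKM in BM HSCs, against 29.5 and 21.3 FPKM in FL HSCs (log2 change -0.80, SE 0.20).

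The 9 genes whose BM HSC and FL HSC libraries overlapped as deposited were Dkc1, Nop56, Nop58, Polr1b, Tsr1, Wdr43, Nob1, Ltv1 and Ebna1bp2. Polr1b had 36.6 and 30.0 FPKM in BM HSCs, against 34.6 and 42.4 FPKM in FL HSCs. For Dkc1 the log2 change was -0.22, with a 95% interval of -0.77 to 0.33, so a fall of more than 2-fold lay outside the interval. The corresponding interval of Nop58 was -0.20 to 0.42 and that of Tsr1, a GTPase-like factor of the small subunit, -0.61 to 0.46.

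Relative to pre-HSCs, BM HSCs kept part of the higher level. Called higher in BM HSCs than in pre-HSCs were 6 genes, Dkc1, Polr1b, Nop58, Tsr1, Fbl and Ddx21, and 0 were called lower, where 14.3% of all tested genes were called higher and 14.5% lower. That share, 15.4% of members, is close to the background. The median log2 change was 0.54 against 0.10 over all genes, and with equal totals 0.43 against 0.00. Dkc1 again led, at 1.95 (SE 0.22, limma's adjusted p = 6.5e-05). With equal totals 3 genes were called higher, Dkc1, Polr1b and Nop58, where 12.3% of all genes were, and without BM HSC library 1 the count was 10. No member was lower at an unadjusted p under 0.05 in limma.

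The steps before the fetal liver were smaller. In pre-HSCs, 1 gene, Nhp2, fell relative to HE and 0 rose, where 4.34% of all tested genes fell and 6.98% rose, and Ltv1 was the gene higher at an unadjusted p under 0.05 in limma. Nhp2 had 102, 117 and 112 FPKM in pre-HSCs, against 283 and 205 FPKM in HE (log2 change -1.13, SE 0.23, limma's adjusted p = 0.00705). At any size of change 12 members were lower past both tests (10.3% of all genes were), among them Gar1, Rrp9, Fbl, Mrto4 and Bysl with log2 changes between -0.97 and -0.87. In the FPKM as deposited 29 of 39 were lower in pre-HSCs, with a median of -0.28 against 0.09 over all genes, and with equal totals 24 were lower, with a median of -0.13 against 0.22, and no member was called lower where 3.23% of all genes were. Leaving out HE library 1 gave 0 called genes, leaving out HE library 2 gave 5, and leaving out pre-HSC library 2 or 3 gave 3 each.

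Few genes of any kind were called between HE and Endo. The study, with its own test of counts, reported many more differing genes at this step. Few calls here therefore need not mean few differences. By limma 0 of 39 rose and 0 fell in HE, where 0.0544% and 0.0748% of all tested genes did, and 2 members, Ncl and Ebna1bp2, were lower at an unadjusted p under 0.05. As deposited, the FPKM of 31 members was lower in HE and the median log2 change was -0.11, but with equal totals 20 were higher and 19 lower, with a median of 0.00. The libraries did not overlap for 13 members lower in HE, where 13.7% of all genes were lower without overlap, and for 2 members higher in HE, where 21.3% were. With equal totals 5 members were lower without overlap (6.58% of all genes were) and 3 were higher (23.8% of all genes were). Ncl had 98.4 and 99.4 FPKM in HE, against 122 and 131 FPKM in Endo. Dkc1 had the lowest log2 change, -0.49 (SE 0.24), and Rrp1b, a large subunit factor, the highest, 0.46 (SE 0.21). The smallness of the samples leaves the intervals of single genes wide, as for Dkc1 between -1.04 and 0.06.

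The size of 2 of these steps followed the base composition of the genes. Across the 39 genes, the change of pre-HSCs against HE correlated with the GC content of the coding sequence at r = -0.75, where it was -0.27 across 13330 tested coding genes. For BM HSCs against FL HSCs r was -0.61 across the 39 and -0.12 across all, and for FL HSCs against pre-HSCs 0.17 and -0.04. The 39 points share their libraries, and are no independent replicates. The 2 FL HSC libraries differed from each other in the same way, with r = 0.76 between library 1 minus library 2 and GC content, as did the 2 HE libraries with r = 0.70. With GC content and length regressed out, an alternative chosen after seeing the data, 25 members rose in FL HSCs against pre-HSCs, 37 of 39 were lower in pre-HSCs against HE with none called, and 39 of 39 were lower in BM HSCs against FL HSCs with 2 called, Rrp9 and Wdr75. The share of all genes called with GC content and length removed is not given, so these counts describe the members only. The part of base composition in single genes was not tested beyond this.

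**Figure D4:**
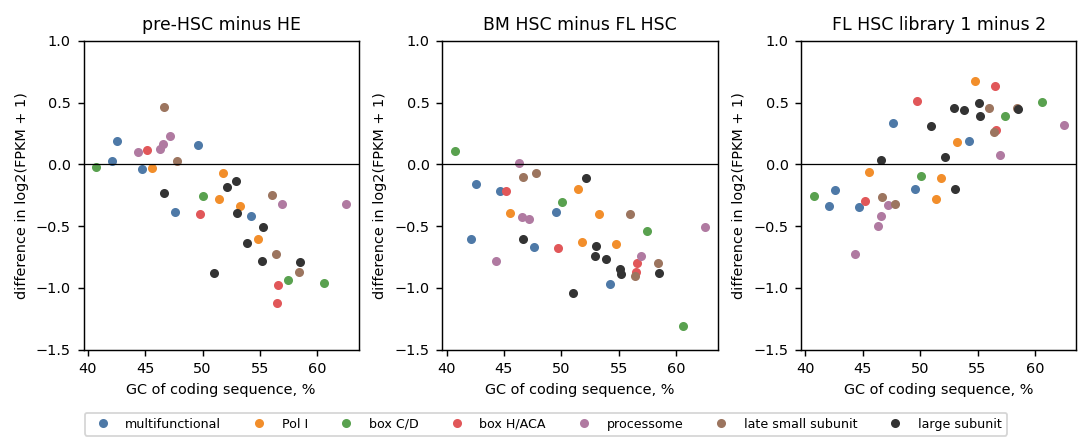
Difference in log2(FPKM + 1) of each of the 39 genes against the GC content of its coding sequence, for pre-HSC minus HE (left), BM HSC minus FL HSC (middle) and FL HSC library 1 minus library 2 (right), colored by role. Points fall to the right in the first 2 panels (r = -0.75 and r = -0.61) and rise in the third (r = 0.76).

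For the wider process the counts were as follows. Of 96 other ribosome biogenesis genes, 27 rose in FL HSCs against pre-HSCs and 0 fell, where 11.1% of all tested genes rose and 13.9% fell. The median log2 change of the 96 was 0.74. Nat10, an RNA acetyltransferase, led them with a log2 change of 1.78 (SE 0.14), followed by Noc4l at 1.73, Shq1, an assembly factor of H/ACA particles, at 1.67 and Tcof1, or treacle, at 1.62. In BM HSCs against FL HSCs 5 of the 96 fell and 0 rose, where 4.07% of all tested genes fell and 5.99% rose. The share that fell is close to that background. At an unadjusted p under 0.05 in limma 6 of the 96 were higher. The largest falls had log2 changes of -1.10 for Tbl3, -1.10 for Wdr18, -1.05 for Pelp1 and -1.04 for Ruvbl2. With equal totals 16 rose at the first of these steps and 0 fell at the second, where 7.62% and 3.14% of all genes did. Of 76 cytosolic ribosomal protein genes, the products whose assembly these factors serve, 0 were called in FL HSCs against pre-HSCs, with 36 higher at an unadjusted p under 0.05 in limma and a median of 0.54, and with equal totals 1 was called. Of 41 DNA replication genes 10 rose, with a median of 0.76, where 11.1% of all tested genes rose. With equal totals 6 of the 41 rose, with a median of 0.51, where 7.62% of all genes did. Whether the lists differ from one another was not tested.

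**Figure D5:**
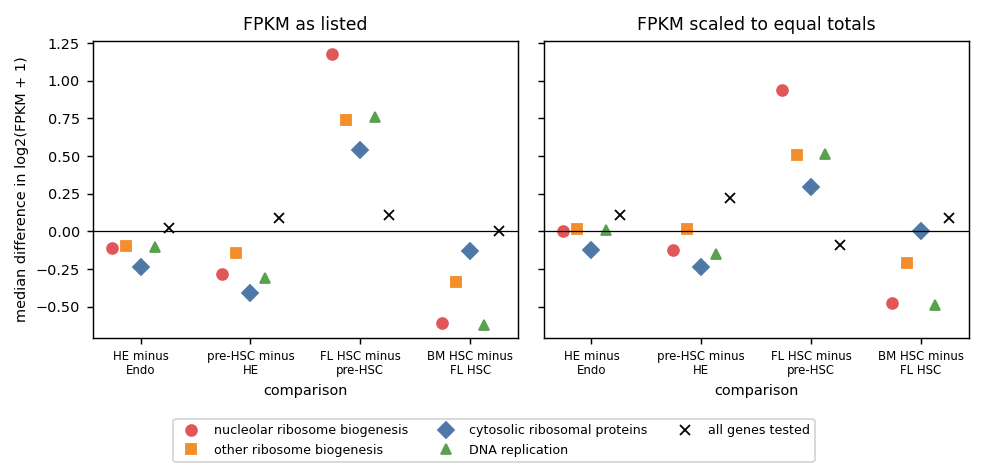
Median difference in log2(FPKM + 1) of the 39 nucleolar genes, 3 other gene lists and all tested genes at each step between neighboring stages, for FPKM as deposited (left) and scaled to equal totals (right). The nucleolar genes have the highest median at the FL HSC step on both scales (1.18 and 0.94), while in HE against Endo their median is -0.11 on the left and 0.00 on the right.

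Markers of other cells moved at the same steps. The summed FPKM of 9 erythroid genes was 389 and 259 in FL HSCs, against 74.6, 106 and 95.1 in pre-HSCs, and 58.9 and 74.4 in BM HSCs, with 5 of 9 called higher in FL HSCs against pre-HSCs and 8 of 9 called lower in BM HSCs against FL HSCs. The erythroid list was split between FL HSCs and pre-HSCs. Epor, Klf1 and Gata1 were called higher in FL HSCs, while Alas2 and Hba-a1 were lower there and not called (log2 changes -0.45 and -0.79). The red cell gene Alas2 was at 1.81 and 0.81 FPKM in FL HSCs, against 2.43, 2.16 and 1.71 FPKM in pre-HSCs. It was listed at 0 in both BM HSC libraries, where Gata1 still had 20.7 and 30.4 FPKM. The sum of 7 macrophage genes was 373 and 108 in FL HSCs, against 579, 220.1 and 1183 in pre-HSCs, with none at 0 in either, 2 of 7 called lower in FL HSCs and 4 of 7 called lower in BM HSCs against FL HSCs. FL HSC library 1 had the higher erythroid and macrophage sums, and 22 of the 39 nucleolar genes were higher in library 1 than in library 2, with a median log2 difference of 0.08. The sum of 7 endothelial genes was 91.3 and 106.5 in FL HSCs, against 1915, 2119 and 1918 in pre-HSCs, with all 7 called lower, where the gate for pre-HSCs required endothelial proteins. For 6 hepatocyte genes that passed the filter 2 were called higher in FL HSCs than in pre-HSCs, Alb and Hnf4a, and the sum over the hepatocyte list was 48.6 and 14.4 in FL HSCs, against 3.90, 9.17 and 32.4 in pre-HSCs. Alb and Apoa1 were called lower in BM HSCs than in FL HSCs. Hnf4a was not, with 6.79 and 9.18 FPKM in BM HSCs, against 7.45 and 5.4 FPKM in FL HSCs. At the step before, the macrophage sum in pre-HSCs stood against 7.44 and 11.1 in HE, with 7 of 7 called higher in pre-HSCs, and the erythroid sum in pre-HSCs stood against 529 and 673 in HE, with 6 of 9 called lower. For 8 mitotic genes the sum was 694 and 599 in FL HSCs, against 649, 654 and 683 in pre-HSCs, and 348 and 246 in BM HSCs, with 0 called in FL HSCs against pre-HSCs and 1 higher at an unadjusted p under 0.05 in limma. In BM HSCs against FL HSCs, Plk1, Birc5, Ccnb1 and Aurkb were called lower, with log2 changes between -2.069 for Plk1 and -1.375 for Aurkb. Cdk1, Bub1, Top2a and Mki67 were not called there. The part of these differences in the nucleolar genes was not tested.

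Some values carry a limit of their own. Stretches of at least 300 bases matching elsewhere in the genome at 95% identity or more were found for 6 members, Npm1, Fbl, Nop56, Pes1, Wdr12 and Mrto4, so their reads may have been shared with or lost to those copies. An exon of 11 members overlaps a gene on the other strand, among them Dkc1, Rrp9, Nhp2, Tsr1, Bysl, Bop1 and Pes1, and without strand the reads of both genes cannot be told apart. Between their start and end, 7 members (17.9%), Ncl, Gnl3, Nop56, Nop58, Dkc1, Wdr43 and Tsr1, contain annotated snoRNA genes on the same strand. The share was 1.75% of 13323 tested protein-coding genes. These 7 thus carry, besides their protein, small RNAs of the types of particle that members form, Nop56, Nop58 and Dkc1 themselves among them. Those RNAs were not measured by this poly(A) selected assay.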

How the data were processed

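RNA was poly(A) selected and sequenced as paired reads. Per the study's methods, the authors ran TopHat against mm9, discarded reads that mapped to several places and counted over Ensembl genes. The deposited table holds FPKM for each gene in every library. The submitters' processing notes also name Cufflinks, featureCounts, Subread and edgeR. The sources used here name an Ensembl release but give no program versions, nor the tool behind the FPKM or the use of strand. The authors' edgeR test used counts, which FPKM cannot replace. Whole reads could not be recovered, so depth is unknown. The meaning of a shared replicate number is not stated, and p-values measure the spread between these libraries. The study lists the same number of dissected embryos for Endo and HE, which were separated by GFP. Libraries of Endo and HE may therefore share embryos, and the main model pairs no libraries.

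The main model was limma 3.58.1 (R 4.3.3; lmFit, then eBayes with trend) on log2(FPKM + 1) across the 11 libraries, for 14708 genes that reached 1 FPKM in 2 or more of them, with Benjamini-Hochberg adjustment over all 14708. The spread is pooled, so that populations with 2 libraries lean on the rest. The fit was tested on simulated data. Symbols, positions, coding GC content and snoRNA hosts came from GENCODE M1 (mm9), promoters from RefSeq (GRCm38.p6), and copies from minimap2 2.31. Tables were made in pandas 2.3.3 and numpy 2.4.6 under Python 3.11.15, and plots in matplotlib 3.10.9. Genes given in every library were the most abundant of each role, the 12 with the largest called changes and those highest outside FL HSCs; Mrto4, Ltv1 and a few values of others were added after their values were seen. The members and lists were chosen with earlier results of these data known. Alternatives were equal totals, median ratio and quantile scaling, pseudocounts of 0.1 and 0.5, no filter, an adjusted p under 0.01, no F test, a replicate block, only both populations' libraries, each library left out and, chosen after seeing the data, GC content and length removed. Noc2l, Taf1a, Rpl13, Cdt1 and Gins2 of the other lists were not analysed here.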

Additional observations from a re-analysis of the deposited data

How the results depend on the processing

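The number of called members in FL HSCs against pre-HSCs was 28, and it was 17 with equal totals, 21 with median ratio scaling and 24 to 28 with 1 library left out. Its median log2 change of 1.18 became 0.94 with equal totals, 1.01 with median ratio scaling and 1.04 with quantile normalization. In BM HSCs against FL HSCs the 2 called genes became 1 with equal totals, 1 with quantile normalization, 0 with only both populations' libraries and 1 to 9 with 1 library left out, and the median of -0.61 became -0.48 with equal totals, -0.42 with quantile normalization and -0.62 to -0.51 with 1 library left out. In BM HSCs against pre-HSCs 6 called genes became 3 with equal totals, 2 with median ratio scaling and 5 to 10 with 1 library left out, and the median of 0.54 became 0.43, 0.39 and 0.54 to 0.64. In pre-HSCs against HE the 1 called gene became 0 with equal totals, with quantile normalization, without the filter and with GC content and length removed, 4 with median ratio scaling, and 0 to 5 with 1 library left out. Its median of -0.28 became -0.13 with equal totals, -0.38 with median ratio scaling, -0.40 with GC content and length removed and -0.39 to -0.24 with 1 library left out. In HE against Endo the median of -0.11 became 0.0028 with equal totals, and 0 genes were called under every alternative run. For alternatives other than equal totals, here and above, the share of all genes called is not given. Their counts of called members are therefore not set against a background here, and describe the members only. The causes were not tested.

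Libraries with the same replicate number deviated from their population means with correlations between -0.155 and 0.156, so the numbers were not taken to pair the libraries. With the number as a replicate block 3 members were called in pre-HSCs against HE, 27 in FL HSCs against pre-HSCs, 2 in BM HSCs against FL HSCs, 8 in BM HSCs against pre-HSCs and 0 in HE against Endo. Depth is unknown, so no counting error is given, and with 2 libraries in most populations a change under 2-fold in a single gene is often within its interval.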
